A study of Mus musculus with 12 samples.

Results

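The 8 genes of 3 families of RNA-binding splicing regulators described here were followed across a microRNA-loss and rescue experiment in mouse mesenchymal stem cells: Celf1, Celf2 and Celf4 of the CELF family, Ptbp1 and Ptbp2 of the polypyrimidine tract-binding family, and Mbnl1, Mbnl2 and Mbnl3 of the muscleblind family. They were taken by name from a table of 21881 genes, where each of the 8 had 1 row. The 8 were chosen by gene name, with no threshold, but with their FPKM differences between the groups of these same libraries already known. The tests below therefore place each gene among all genes tested and are not independent evidence for the group. The cells were immortalized monoclonal lines from the bone marrow of adult C57BL/6 mice, fibroblast-like in type. The study had 4 groups of 3 libraries, each made from polyadenylated RNA. KO_let-7g cells lacked Dicer1 (Dicer -/-) and received a duplex of the microRNA let-7g. KO_siNr6a1 cells lacked Dicer1 and received an siRNA against Nr6a1, the gene of an orphan nuclear receptor. KO_siCtrl cells lacked Dicer1 and received a control siRNA. WT_siCtrl cells kept floxed, intact Dicer1 (Dicer f/f) and received the same control. Each RNA was used at 20 nM and cells were taken at 48 h, so that transfection was shared by all groups. How many clones were used, and whether each library had its own culture, is not given by the labels. Genotype and cell line therefore cannot be told apart, and the spread behind each p-value is that of 3 libraries a group, possibly only technical.

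Splicing factors of these families decide which exons stay in a messenger RNA. Ptbp1 binds pyrimidine-rich tracts and mostly blocks exon inclusion. In mouse cells it causes skipping of an exon of Ptbp2, which sends that mRNA to nonsense-mediated decay, so that Ptbp2, the paralog of neurons and testis, is usually low where Ptbp1 is high. Muscleblind proteins are zinc-finger proteins that take part in the change from fetal to adult splicing in muscle and brain and are trapped on expanded repeats in myotonic dystrophy. CELF proteins bind GU-rich RNA, often act against muscleblind proteins on the same exons, and in the cytoplasm promote decay or translation of their targets. In neurons and muscle, microRNAs are known to lower some of these factors.

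The 22-nucleotide guide strand that one group received is shown first, so that its seed can be set beside the 3′ UTRs of these genes; it was taken from RefSeq (GRCm38.p6), with its seed, bases 2 to 8, in capitals.
mmu-let-7g-5p: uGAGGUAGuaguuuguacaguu
In the longest annotated 3′ UTR of each gene (GENCODE vM21, build GRCm38), matches to this seed were looked for: CTACCTCA as the 8mer, CTACCTC and TACCTCA as the 7mers, and TACCTC as the 6mer. The best matches among the 8 genes are printed 5′ to 3′ in the sense of the mRNA, with the match in capitals.
Celf1, chr2:91014599-91014605, plus strand, a 7mer: tgttcattTACCTCAgtattaac
Ptbp2, chr3:119718940-119718945, minus strand, a 6mer: actctgctTACCTCtgtagcat
Mbnl3, chrX:51118818-51118824, minus strand, a 7mer: aagcaaaaCTACCTCtggtggat
Nr6a1, whose product the siRNA targets, is shown for contrast, with the first of its 3 8mers.
Nr6a1, chr2:38727449-38727456, minus strand, an 8mer: aaagacaaCTACCTCAatggaaac
None of the 8 splicing regulators held an 8mer, and Celf2, Celf4, Ptbp1, Mbnl1 and Mbnl2 held no 6mer in UTRs of 1494 to 7381 bases. Among 10217 tested genes with a 3′ UTR, 3.62% held an 8mer, 16.8% a 7mer or 8mer and 26.3% at least a 6mer, in UTRs of median length 1192 bases. Counting these members, 2 of 8 held a 7mer and 3 of 8 at least a 6mer. The UTRs of those 3 had 6132 (Celf1), 1586 (Ptbp2) and 3738 bases (Mbnl3). Every member's UTR was longer than that median, and the shares were not adjusted for length. The extended nuclear receptor element TCAAGGTCA, the kind of sequence that the Nr6a1 protein binds, was looked for on both strands from 250 bases before to 50 bases after the start of each gene. It lay in 0 of the 7 promoters found for the 8 genes, in 27 of 8233 promoters of tested genes (0.328%) and in 126 of 27025 promoters of all genes (0.466%). With shares this low, 0 of 7 does not set these genes apart from the rest. A sequence match is only a description, and the absence of one holds only for the window searched.

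Levels are in FPKM, fragments per kilobase of transcript scaled to a library's mapped fragments, as deposited. Nr6a1 averaged 4.22 ± 1.04 FPKM in KO_let-7g, 3.68 ± 0.539 in KO_siNr6a1, 11.7 ± 1.32 in KO_siCtrl and 1.118 ± 0.158 in WT_siCtrl (SD, n = 3 each), so both treated groups had less of it than KO_siCtrl. Dicer1 was measured over the whole gene and averaged 2.70 to 3.86 FPKM in the KO groups, against 6.58 ± 1.45 in WT_siCtrl. The depth in reads is unknown. Relative to the shallowest library, set at 1, depth was 1.34 to 1.82 in KO_let-7g, 1.13 to 1.56 in KO_siNr6a1, 1 to 1.31 in KO_siCtrl and 1.11 to 1.29 in WT_siCtrl. Of 12 mesenchymal markers, 11 averaged at least 1 FPKM in every group, the exception being Thy1. Their level was not equal between groups: the summed FPKM of the list was 2258 to 2705 over the KO libraries, against 3916 to 4636 in WT_siCtrl, with Col1a2 at 283 ± 12.9 in KO_siCtrl and 1378 ± 109 in WT_siCtrl. Of the 11 that were tested, 4 were called higher and 5 lower in KO_siCtrl against WT_siCtrl. Of 9 blood markers, only Cd74 reached a mean of 1 FPKM, with 20.8 ± 7.42 in KO_let-7g, 51.0 ± 10.5 in KO_siNr6a1, 31.9 ± 5.94 in KO_siCtrl and 10.8 ± 3.44 in WT_siCtrl, while Ptprc was near 0. The part of these markers in the differences below was not tested. Because each library is a bulk sample, fewer cells of one type and less RNA per cell cannot be told apart.

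Of the 8 genes, 6 differed between KO_siCtrl and WT_siCtrl cells at an adjusted p under 0.05 in a limma fit of log2(FPKM + 1) over all libraries, 3 of them higher and 3 lower in KO_siCtrl. Ptbp2, Celf4 and Celf1 were higher, and Celf2, Mbnl1 and Mbnl2 were lower. Among all 11801 genes tested in that comparison, 54.3% were called, 29.1% higher and 25.2% lower, so a count of 6 in 8 is not far from what the table as a whole gave. Celf2, one of the 6, passed the filter on low values only through the WT_siCtrl libraries and so had to differ from them. The libraries of the 2 groups did not overlap for 6 of the 8 genes, Celf2 included, and for 57.2% of all genes. The median log2 fold change was -0.12 over the 8 genes and 0.04 over all genes tested. In KO_let-7g against KO_siCtrl, 5 of the 8 were called, 1 higher and 4 lower, against 45.6% of all genes (27.5% higher and 18.2% lower), with medians of -0.30 over the 8 and 0.08 over all. The groups did not overlap for 6 of the 8 and for 55.4% of all genes. In KO_siNr6a1 against KO_siCtrl, 7 of the 8 were called, 3 higher and 4 lower, against 29.4% of all genes (13.2% higher and 16.3% lower), with medians of -0.19 over the 8 and -0.06 over all. The groups did not overlap for 7 of the 8 and for 46.1% of all genes. With the replicate number as a block, 7684 genes were called in KO_siCtrl against WT_siCtrl in place of 6413. The block called 6878 in KO_let-7g against KO_siCtrl in place of 5383, and 5248 in KO_siNr6a1 against KO_siCtrl in place of 3474. The count of 7 among the 8 was 4 when KO_siCtrl replicate 0, KO_siNr6a1 replicate 1 or KO_siNr6a1 replicate 2 was left out, and also without a filter on low values. The direction of the background depends on scaling. Of the genes called, 53.6% were higher in KO_siCtrl against WT_siCtrl as deposited and 46.4% with upper quartile scaling. In KO_let-7g against KO_siCtrl the share was 60.2% as deposited and 49.9% with quantile scaling, and in KO_siNr6a1 against KO_siCtrl it was 44.8% as deposited and 54.4% with median of ratios scaling. The comparisons share the KO_siCtrl libraries, so a gene that is high or low there is moved in all 3, and each comparison's own values are given gene by gene.

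**Figure D1:**
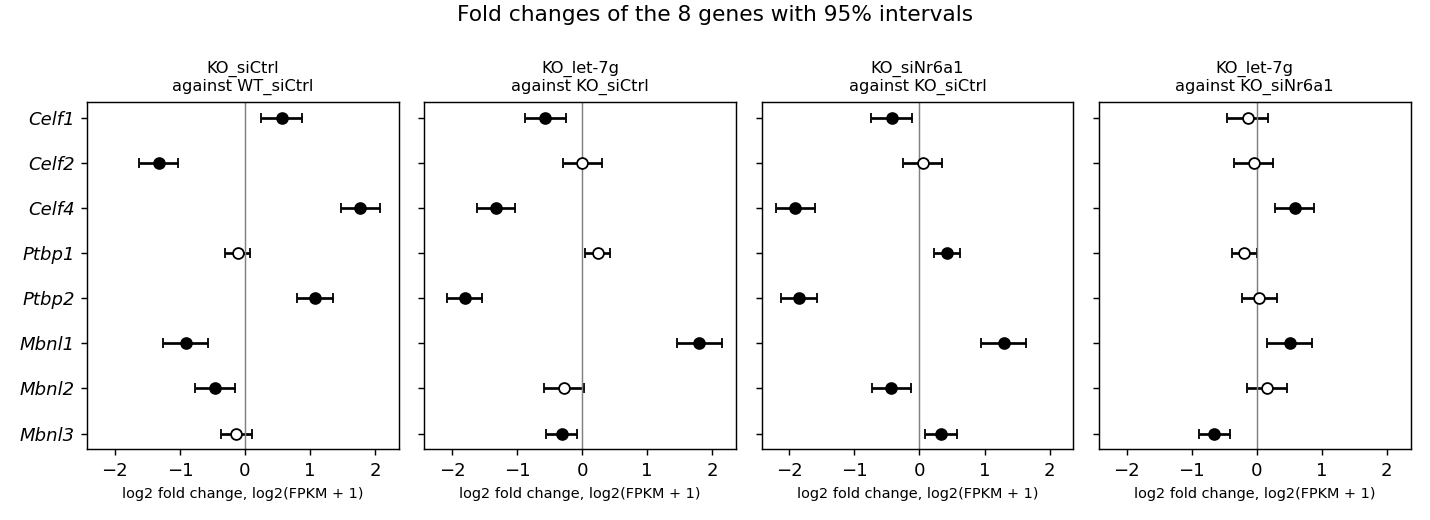
Log2 fold changes of the 8 genes on the log2(FPKM + 1) scale in 4 comparisons, each named above its panel, with 95% intervals from limma. Filled points passed an adjusted p of 0.05 over all 11801 genes and open points did not. Ptbp2 and Celf4 lie right of 0 in KO_siCtrl against WT_siCtrl and left of it in both treatments against KO_siCtrl, and Mbnl1 lies on the other side each time.

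Ptbp2 was lower in both treated groups than in either control group. Its level was 15.8, 18.0 and 13.8 FPKM in the KO_let-7g libraries, 15.8, 14.7 and 15.4 in KO_siNr6a1, 56.3, 66.7 and 51.5 in KO_siCtrl, and 30.9, 23.6 and 26.7 in WT_siCtrl. The KO_siCtrl libraries stood above all others and the WT_siCtrl libraries above both treated groups, with no overlap. The rise in KO_siCtrl over WT_siCtrl was 1.08 on the log2 scale (SE 0.12, limma adjusted p = 3.08e-05). KO_let-7g fell by 1.81 below KO_siCtrl (adjusted p = 2.78e-06) and KO_siNr6a1 fell by 1.85 below it (adjusted p = 1.33e-05, limma). The difference between the treatments was 0.04, with a 95% interval of -0.23 to 0.32 (limma adjusted p = 0.815), and its sign turned under other scalings. Against WT_siCtrl, KO_let-7g was lower by a log2 difference of -0.73 (adjusted p = 0.000459) and KO_siNr6a1 by -0.77 (adjusted p = 0.000325, limma), so Ptbp2 in the treated cells lay below the level of the cells with Dicer1. Within each replicate number the change in KO_let-7g against KO_siCtrl was -1.84 to -1.77. It varied more in the other comparisons: -2.11 to -1.68 in KO_siNr6a1 against KO_siCtrl and 0.85 to 1.46 in KO_siCtrl against WT_siCtrl. In KO_let-7g against WT_siCtrl it was -0.92 to -0.37.

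Ptbp1, the most abundant of the 8, moved little. It measured 193, 192 and 218 FPKM in KO_let-7g, 223, 221 and 244 in KO_siNr6a1, 165, 157 and 191 in KO_siCtrl, and 174, 189 and 189 in WT_siCtrl. The KO_siNr6a1 libraries lay above every other library, while KO_siCtrl and WT_siCtrl overlapped. The rise in KO_siNr6a1 over KO_siCtrl was 0.43 (SE 0.09, limma adjusted p = 0.00478). In KO_let-7g against KO_siCtrl the log2 difference was 0.24 and missed the threshold (limma adjusted p = 0.050045), but it passed in 5 of 22 alternatives. These were the replicate number as a block (limma adjusted p = 0.00642), upper quartile scaling (0.0436) and a pseudocount of 0.5 (0.04995). The others were without KO_siCtrl replicate 2 (0.0150) or WT_siCtrl replicate 0 (0.0496). The log2 difference of KO_siCtrl from WT_siCtrl was -0.11, with a 95% interval of -0.31 to 0.09 (limma adjusted p = 0.319). KO_siNr6a1 was also above WT_siCtrl, by 0.32 (limma adjusted p = 0.0110; 0.0507 without KO_siNr6a1 replicate 2).

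The balance of the 2 paralogs followed Ptbp2. Per library, the ratio of Ptbp1 to Ptbp2 FPKM averaged 12.9 ± 2.58 in KO_let-7g, 14.99 ± 0.924 in KO_siNr6a1, 2.997 ± 0.682 in KO_siCtrl and 6.91 ± 1.205 in WT_siCtrl (SD, n = 3 each). Ptbp2 held 6.02% ± 0.864 of the summed FPKM of Ptbp1, Ptbp2 and Ptbp3 in KO_let-7g and 5.14% ± 0.231 in KO_siNr6a1, against 22.3% ± 3.40 in KO_siCtrl and 10.8% ± 1.54 in WT_siCtrl. The family sum itself was 264 ± 5.14, 298 ± 13.4, 261 ± 6.49 and 251 ± 3.41 FPKM in the same order of groups. FPKM is summed over a gene, so the exon of Ptbp2 that Ptbp1 is known to repress cannot be seen in these values. Neural markers were weak throughout: of 11 in the table, 7 to 9 had a group mean under 0.1 FPKM, among them Snap25, and Tubb3 was the highest (7.11, 2.61, 1.99 and 1.72 FPKM in KO_let-7g, KO_siNr6a1, KO_siCtrl and WT_siCtrl). Their summed FPKM was 6.31 to 9.16 in KO_let-7g, 2.69 to 3.17 in KO_siNr6a1, 2.01 to 2.94 in KO_siCtrl and 2.04 to 2.59 in WT_siCtrl. On the group means, Tubb3 made up most of it. The part of these markers in the Ptbp2 and Celf4 differences was not tested.

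**Figure D2:**
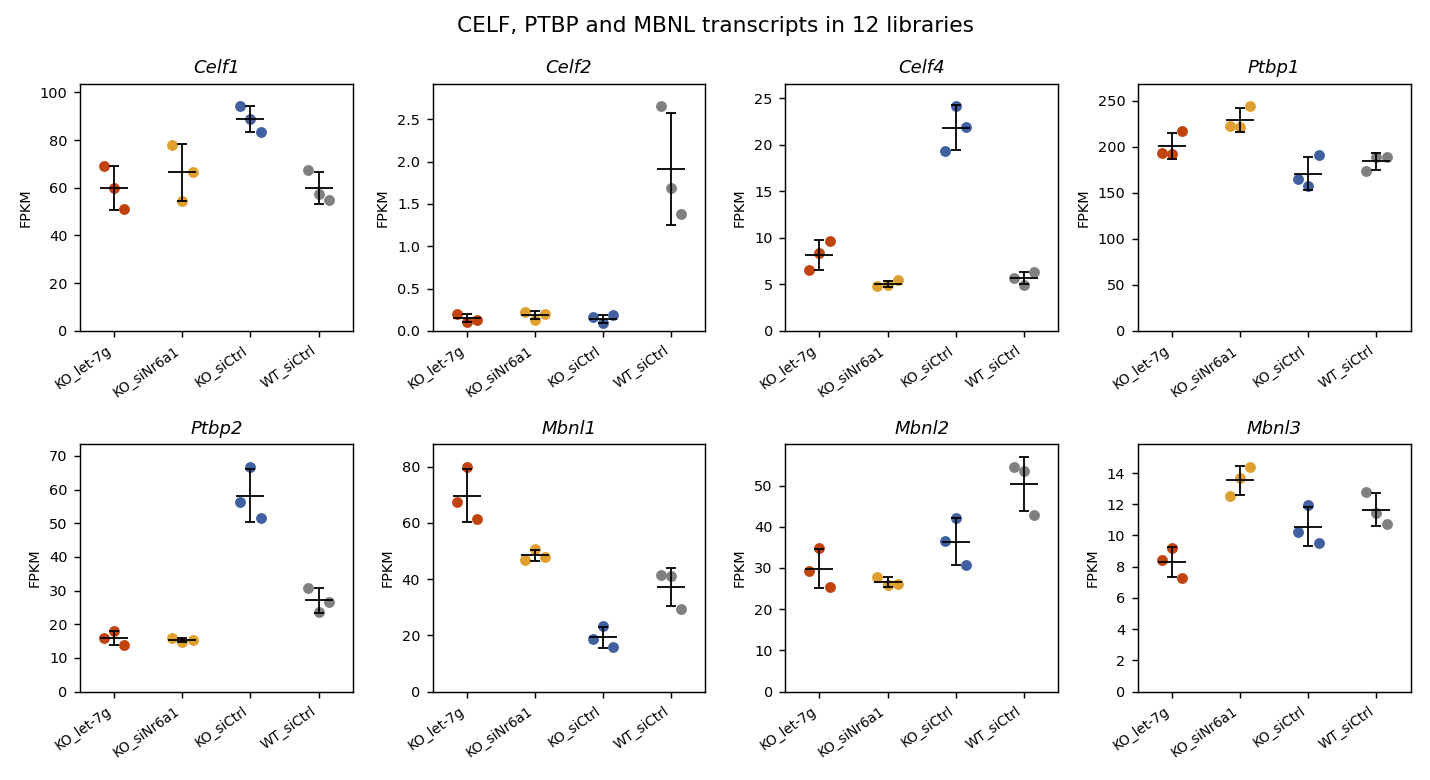
FPKM of the 8 genes in every library, by group, on linear axes that start at 0. Points are libraries with replicates 0, 1 and 2 from left to right, and bars are the mean and SD of 3 libraries. The KO_siCtrl libraries are the highest for Celf1, Celf4 and Ptbp2 and the lowest for Mbnl1, and Celf2 is above 1 FPKM only in WT_siCtrl.

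Celf4, a CELF protein of neurons that binds the 3′ UTRs of many synaptic mRNAs in mouse brain, had the largest rise of the 8 in KO_siCtrl over WT_siCtrl. It measured 6.50, 8.38 and 9.64 FPKM in KO_let-7g, 4.86, 4.89 and 5.42 in KO_siNr6a1, 19.3, 24.1 and 21.9 in KO_siCtrl, and 5.73, 4.96 and 6.32 in WT_siCtrl. Every KO_siCtrl library was above every other library, and KO_siNr6a1 and WT_siCtrl overlapped. The rise in KO_siCtrl over WT_siCtrl was 1.77 (SE 0.14, limma adjusted p = 1.22e-06). Against KO_siCtrl, Celf4 fell by 1.32 in KO_let-7g (limma adjusted p = 2.51e-05). In KO_siNr6a1 it fell by 1.91 (limma adjusted p = 1.70e-05). The treatments differed from each other, with KO_let-7g higher by 0.59 (limma adjusted p = 0.00556). KO_let-7g was above WT_siCtrl by 0.45 (adjusted p = 0.0142), a call lost in 4 of 22 alternatives, among them those without KO_let-7g replicate 2 (0.0613) or WT_siCtrl replicate 1 (0.0578). For KO_siNr6a1 the difference from WT_siCtrl was -0.14, with a 95% interval of -0.43 to 0.16 (limma adjusted p = 0.422).

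Celf1, a factor of GU-rich elements that promotes decay of many short-lived mRNAs and whose excess is a feature of myotonic dystrophy, was higher in KO_siCtrl than in the other groups. It measured 69.3, 59.8 and 50.9 FPKM in KO_let-7g, 78.1, 54.5 and 66.7 in KO_siNr6a1, 94.3, 88.8 and 83.6 in KO_siCtrl, and 67.6, 57.4 and 54.9 in WT_siCtrl. The KO_siCtrl libraries did not overlap with any other group, and the remaining 3 groups overlapped with each other. Celf1 rose by 0.56 in KO_siCtrl over WT_siCtrl (SE 0.14, adjusted p = 0.00583) and fell by 0.57 in KO_let-7g below KO_siCtrl (adjusted p = 0.00714, limma). In KO_siNr6a1 it fell by 0.43 (limma adjusted p = 0.0425), but this call was lost in 12 of 22 alternatives, with an adjusted p of up to 0.156, reached without KO_siNr6a1 replicate 1. The call was lost in the same way without KO_siCtrl replicate 0 (0.117), 1 (0.0920) or 2 (0.0624), KO_siNr6a1 replicate 2 (0.0894), KO_let-7g replicate 1 (0.0569) or WT_siCtrl replicate 1 (0.0542). The log2 difference of KO_let-7g from WT_siCtrl was -0.00, with a 95% interval of -0.32 to 0.31 (limma adjusted p = 0.983).

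Celf2, a broadly acting CELF protein of heart, brain and T cells, was above 1 FPKM only in WT_siCtrl. It measured 0.202, 0.109 and 0.131 FPKM in KO_let-7g, 0.224, 0.131 and 0.203 in KO_siNr6a1, 0.158, 0.0912 and 0.182 in KO_siCtrl, and 2.65, 1.69 and 1.38 in WT_siCtrl. The KO groups overlapped with each other, and every KO library lay below the WT_siCtrl libraries. The KO_siCtrl mean was 0.0752 times that of WT_siCtrl, and the log2 difference was -1.32 on the log2(FPKM + 1) scale, which understates changes at such low levels (limma adjusted p = 1.28e-05). Celf2 passed the filter on low values only through the WT_siCtrl libraries, so it could be tested only because it was high there. Neither treatment brought a called change: the log2 difference from KO_siCtrl was 0.00 in KO_let-7g, with a 95% interval of -0.30 to 0.31 (adjusted p = 0.983), and 0.05 in KO_siNr6a1, with an interval of -0.25 to 0.35 (limma adjusted p = 0.810).

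The summed CELF FPKM was 68.9 ± 7.78 in KO_let-7g, 72.0 ± 11.998 in KO_siNr6a1, 111 ± 4.44 in KO_siCtrl and 68.7 ± 7.10 in WT_siCtrl. Celf1 made up most of it in every group, and Celf4 held 12.1% ± 3.65 in KO_let-7g, 7.15% ± 1.21 in KO_siNr6a1, 19.7% ± 2.37 in KO_siCtrl and 8.31% ± 1.35 in WT_siCtrl. The ratio of Celf1 to Celf4 was therefore lowest in KO_siCtrl, at 4.12 ± 0.657, against 10.7 ± 1.73 in WT_siCtrl, with 7.69 ± 2.74 in KO_let-7g and 13.2 ± 2.57 in KO_siNr6a1.

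Mbnl1, the main muscleblind protein of adult muscle, was the member that rose most in the treated cells. It measured 67.5, 79.9 and 61.4 FPKM in KO_let-7g, 46.8, 50.7 and 48.0 in KO_siNr6a1, 18.7, 23.4 and 15.97 in KO_siCtrl, and 41.3, 40.9 and 29.5 in WT_siCtrl. The 4 groups did not overlap at all, with KO_let-7g highest and KO_siCtrl lowest. Mbnl1 fell by 0.91 in KO_siCtrl below WT_siCtrl (SE 0.16, limma adjusted p = 0.000514). Over KO_siCtrl it rose by 1.80 in KO_let-7g (limma adjusted p = 9.63e-06). The rise in KO_siNr6a1 was 1.30 (limma adjusted p = 0.000196). KO_let-7g exceeded KO_siNr6a1 by 0.50 (adjusted p = 0.0238) and WT_siCtrl by 0.89 (adjusted p = 0.000556, limma). The difference between the treatments was not called without KO_let-7g replicate 0 (adjusted p = 0.0503) or 1 (0.0911), without KO_siNr6a1 replicate 0 (0.0654) or 2 (0.0623), or under median of ratios scaling (0.37, limma adjusted p = 0.0967). KO_siNr6a1 lay above WT_siCtrl in every library, but its difference of 0.39 missed the threshold (limma adjusted p = 0.0557). It was called without KO_siCtrl replicate 1 (0.0379) or 2 (0.0427) or WT_siCtrl replicate 0 (0.0422). With the replicate number as a block it was also called (limma adjusted p = 0.00571), though the number was not taken as a pairing in this comparison.

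Mbnl2, the main muscleblind protein of brain, was highest in WT_siCtrl. It measured 29.2, 34.8 and 25.5 FPKM in KO_let-7g, 27.9, 25.8 and 26.1 in KO_siNr6a1, 36.5, 42.1 and 30.7 in KO_siCtrl, and 54.5, 53.6 and 42.8 in WT_siCtrl. All KO libraries lay below the WT_siCtrl libraries, and KO_let-7g overlapped both other KO groups. The log2 difference of KO_siCtrl from WT_siCtrl was -0.46 (limma adjusted p = 0.0159), a call lost without KO_siCtrl replicate 2 (0.0666), WT_siCtrl replicate 0 (0.0531) or WT_siCtrl replicate 1 (0.0580). Mbnl2 fell further by 0.43 in KO_siNr6a1 against KO_siCtrl (limma adjusted p = 0.0382), which was lost in 10 of 22 alternatives. Among them were the omission of KO_siCtrl replicate 0 (0.0881) or 1 (0.136), of KO_siNr6a1 replicate 0 (0.0619), 1 (0.1003) or 2 (0.0971), and of KO_let-7g replicate 0 (0.0524). In KO_let-7g the log2 difference from KO_siCtrl was -0.28 (adjusted p = 0.126) and was called with the replicate block (limma adjusted p = 0.0247) and without KO_siCtrl replicate 2 (0.0475). Both treated groups were below WT_siCtrl, with log2 differences of -0.74 for KO_let-7g (limma adjusted p = 0.000917) and of -0.89 for KO_siNr6a1 (0.000264).

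Mbnl3, which in mouse is linked to immature and regenerating muscle and to placenta, was the least abundant muscleblind gene. It measured 8.41, 9.18 and 7.27 FPKM in KO_let-7g, 12.5, 13.7 and 14.4 in KO_siNr6a1, 10.2, 11.9 and 9.54 in KO_siCtrl, and 12.8, 11.4 and 10.7 in WT_siCtrl. The treatments lay on either side of KO_siCtrl, which overlapped with WT_siCtrl. Against KO_siCtrl, Mbnl3 fell by 0.32 in KO_let-7g (limma adjusted p = 0.0363) and rose by 0.33 in KO_siNr6a1 (0.0427). The first of these calls was lost in 6 of 22 alternatives, among them those without KO_let-7g replicate 0 (0.0703) or 2 (0.134) and without KO_siCtrl replicate 0 (0.0654) or 1 (0.135). The second was lost in 9 of 22, among them those without KO_siCtrl replicate 0 (0.108) or 2 (0.138), KO_siNr6a1 replicate 0 (0.0507), 1 (0.104) or 2 (0.136), KO_let-7g replicate 0 (0.0590) or WT_siCtrl replicate 1 (0.0543). The difference between the treatments kept its call in every alternative: KO_let-7g was below KO_siNr6a1 by -0.65 on the log2 scale (SE 0.11, limma adjusted p = 0.000967). KO_let-7g was also below WT_siCtrl (-0.45, limma adjusted p = 0.00492), while KO_siNr6a1 differed from WT_siCtrl by 0.20, with a 95% interval of -0.04 to 0.45 (limma adjusted p = 0.143).

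The makeup of the muscleblind family differed more between groups than its sum. Mbnl1 held 64.6% ± 0.531 of the summed FPKM in KO_let-7g and 54.7% ± 1.34 in KO_siNr6a1, against 29.1% ± 0.981 in KO_siCtrl and 37.4% ± 1.63 in WT_siCtrl (SD, n = 3 each). Mbnl2 held 27.7% ± 0.536, 30.0007% ± 1.73, 54.9% ± 0.745 and 50.8% ± 0.687 in the same order of groups. The leading paralog was thus Mbnl1 in the 6 treated libraries and Mbnl2 in the 6 control libraries. The spread of these shares between libraries of a group was small, with the ratio of Mbnl2 to Mbnl1 at 0.428 ± 0.0114 in KO_let-7g, 0.549 ± 0.0435 in KO_siNr6a1, 1.89 ± 0.0792 in KO_siCtrl and 1.36 ± 0.0780 in WT_siCtrl. The family sum was 108 ± 15.02 FPKM in KO_let-7g, 88.6 ± 1.46 in KO_siNr6a1, 66.3 ± 10.6 in KO_siCtrl and 99.2 ± 14.1 in WT_siCtrl. Of 11 striated muscle markers, Myod1 and Myog were at or near 0, and Des and Tnnt2 alone reached a mean of 1 FPKM in any group. Tnnt2, a troponin of cardiac and embryonic muscle, averaged 1.35 ± 0.337 FPKM in KO_let-7g, 2.58 ± 0.447 in KO_siNr6a1, 4.22 ± 0.821 in KO_siCtrl and 0.979 ± 0.290 in WT_siCtrl. It was called higher in KO_siCtrl than in WT_siCtrl (1.40, limma adjusted p = 3.44e-05), where Des was not (0.32, adjusted p = 0.129). The summed FPKM of the list was 5.28 to 5.66 in KO_let-7g, 6.12 to 6.93 in KO_siNr6a1, 6.37 to 8.50 in KO_siCtrl and 3.09 to 4.08 in WT_siCtrl. Every library of all 3 KO groups had a higher sum than every WT_siCtrl library, and the part of these markers in the muscleblind differences was not tested.

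**Figure D3:**
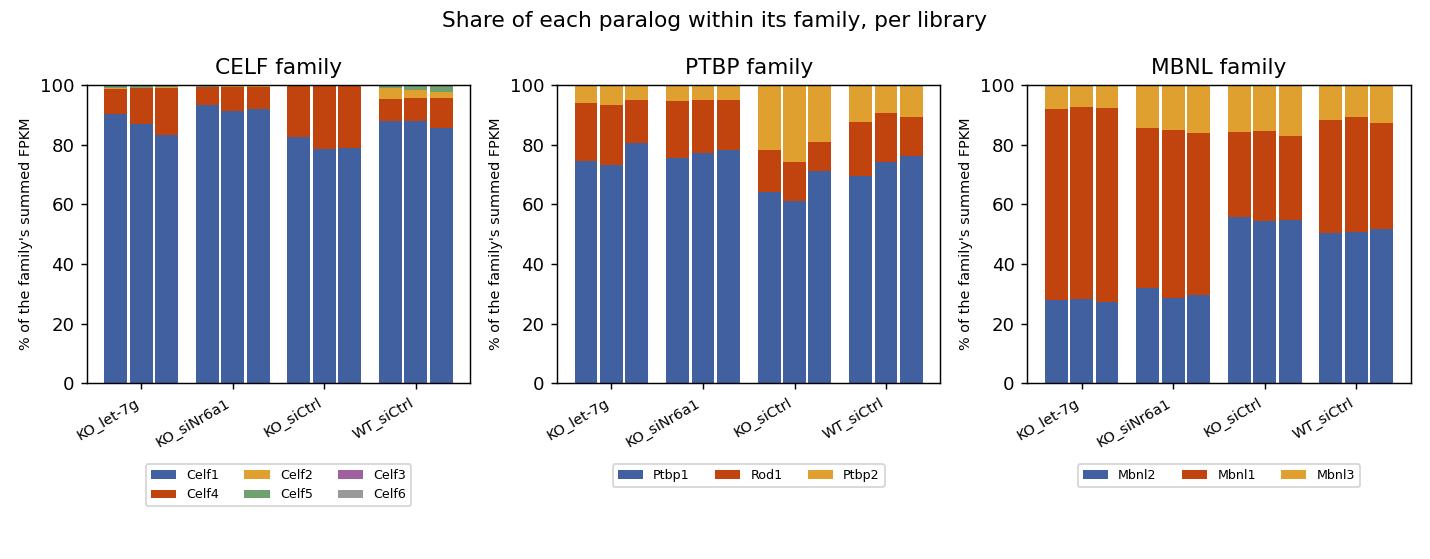
Share of each paralog in the summed FPKM of its family, in percent, with 1 bar per library and 3 bars per group. Ptbp2 holds its largest share in KO_siCtrl, and Mbnl1 exceeds Mbnl2 in the KO_let-7g and KO_siNr6a1 libraries but not in the KO_siCtrl or WT_siCtrl libraries.

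The treatments were set against each other directly: 3 of the 8 genes were called in KO_let-7g against KO_siNr6a1, 2 higher and 1 lower, against 40.9% of all genes (27.6% higher and 13.3% lower). The groups did not overlap for 4 of the 8 and for 55.4% of all genes. Celf4 and Mbnl1 were higher in KO_let-7g and Mbnl3 was lower. In this comparison the median of all genes lay at 0.12 as deposited and at 0.00 after median of ratios scaling. Of the genes called, 67.6% were higher in KO_let-7g as deposited and 48.5% on that scaling. On that scaling the differences were 0.46 for Celf4 (adjusted p = 0.0175), 0.37 for Mbnl1 (adjusted p = 0.0967) and -0.78 for Mbnl3 (limma adjusted p = 0.000395). Ptbp1 was not called as deposited (-0.19, limma adjusted p = 0.110), but was called lower in KO_let-7g on that scaling (-0.33, adjusted p = 0.0108). It was also called with upper quartile scaling (-0.24, limma adjusted p = 0.0360) and with the replicate block (adjusted p = 0.0194). Against WT_siCtrl, 6 of the 8 were called in KO_let-7g, 2 higher and 4 lower, where 58.2% of all genes were called (35.3% higher and 22.8% lower). The share of these calls that were higher was 60.7% as deposited and 47.9% with median of ratios scaling. In KO_siNr6a1 against WT_siCtrl 4 of the 8 were called, 1 higher and 3 lower, where 54.3% of all genes were (27% higher and 27.4% lower). The libraries did not overlap with those of WT_siCtrl for 7 of the 8 genes in KO_let-7g and 60.9% of all genes, and for 5 of the 8 in KO_siNr6a1 and 59.1% of all genes, with Celf2 counted each time.

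Of the other members of these families, Ptbp3, listed under its older symbol Rod1, was the only relative that passed the filter on low values. Rod1, a paralog known from blood cells, averaged 47.3 ± 7.53 FPKM in KO_let-7g, 53.4 ± 2.84 in KO_siNr6a1, 31.8 ± 5.27 in KO_siCtrl and 40.1 ± 6.98 in WT_siCtrl. It rose in both treatments over KO_siCtrl, by 0.56 in KO_let-7g (limma adjusted p = 0.0137) and by 0.74 in KO_siNr6a1 (0.00531). The first of these was lost, with an adjusted p of up to 0.0553, without KO_let-7g replicate 0 or 1 or without KO_siCtrl replicate 2. Celf5 averaged 0.553 ± 0.104 FPKM in KO_let-7g, 0.286 ± 0.0580 in KO_siNr6a1, 0.156 ± 0.0853 in KO_siCtrl and 1.1201 ± 0.373 in WT_siCtrl, and was not tested. Celf3 and Celf6 averaged at most 0.0403 FPKM in any group and were not tested either.

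Partners of Ptbp1 were read from a short list of 3. Raver1, a co-repressor that binds Ptbp1, averaged 59.6 ± 4.01 FPKM in KO_let-7g, 59.1 ± 3.79 in KO_siNr6a1, 34.8 ± 1.83 in KO_siCtrl and 66.9 ± 6.01 in WT_siCtrl. It was lower in KO_siCtrl than in WT_siCtrl (-0.92, adjusted p = 6.18e-06) and higher in both treatments than in KO_siCtrl (0.76, adjusted p = 5.05e-05, in KO_let-7g, and 0.74, adjusted p = 0.000166, in KO_siNr6a1; limma). Matr3, a nuclear matrix protein that also binds Ptbp1, averaged 93.2 ± 3.35, 93.5 ± 5.97, 113 ± 9.14 and 95.1 ± 10.1 FPKM in the same groups. Its rise in KO_siCtrl over WT_siCtrl (0.25, limma adjusted p = 0.0413) was lost in 13 of 22 alternatives. Matr3 was also called lower in KO_let-7g than in KO_siCtrl (-0.27, limma adjusted p = 0.0331), a call lost without any 1 of the KO_let-7g libraries or KO_siCtrl replicate 0 or 1, with an adjusted p of up to 0.107. In KO_siNr6a1 against KO_siCtrl its difference of -0.27 missed the threshold (limma adjusted p = 0.0501). Raver2 stayed near 0 and was not tested.

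**Figure D4:**
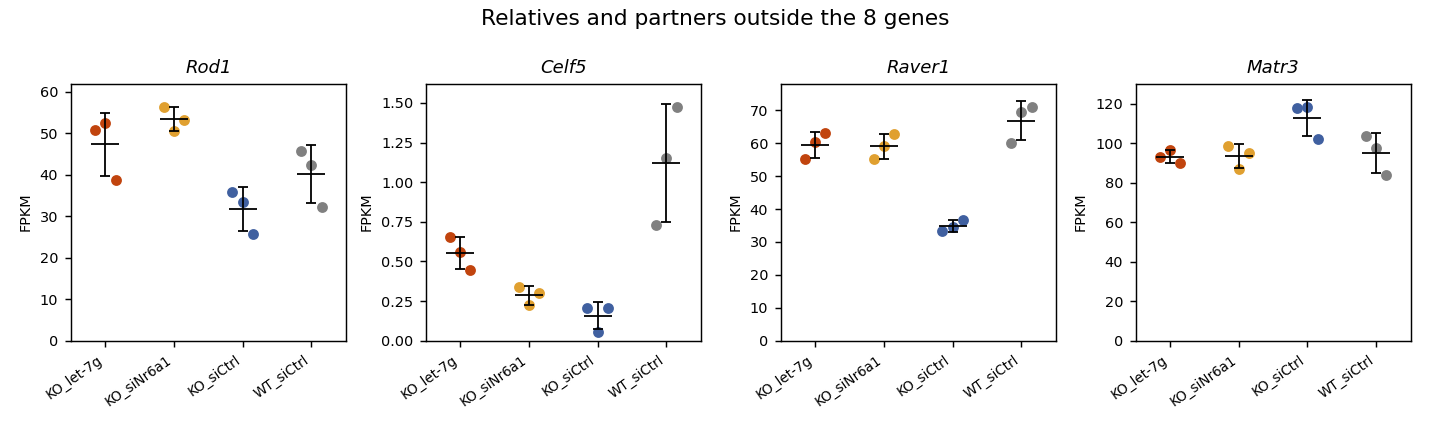
FPKM of 2 relatives (Rod1 and Celf5) and 2 partners (Raver1 and Matr3) of the 8 genes in every library, on linear axes that start at 0. Points are libraries with replicates 0, 1 and 2 from left to right, and bars are the mean and SD of 3 libraries. The KO_siCtrl libraries are the lowest for Raver1, whose mean there is 34.8 FPKM.

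For the 4 members whose group means spanned at least 1 on the log2(FPKM + 1) scale, the tested genes with the most similar profile over the 12 libraries were found by the root mean square difference of centred values. For Ptbp2 they were 1110002L01Rik (0.288), the peptide transporter Slc15a3 (0.288) and the vesicle protein Vamp2 (0.296). For Celf4 they were Hap1 (0.267), Sgk2 (0.288) and Grtp1 (0.299). Slc15a3 and Sgk2 passed the filter on low values only through KO_siCtrl, where they averaged 3.39 ± 0.437 and 2.26 ± 0.326 FPKM. In the other groups their means were at most 0.477 and 0.144 FPKM. The likeness of these genes is therefore also set in part by the filter and the pseudocount of 1. Grtp1 averaged 15.04 ± 0.520 FPKM in KO_let-7g, 10.1 ± 0.485 in KO_siNr6a1, 25.9 ± 0.741 in KO_siCtrl and 7.88 ± 0.963 in WT_siCtrl. For Mbnl1 they were Lims1 (0.197), Ngfrap1 (0.202) and Zfp808 (0.212). The profile of Celf2 lay close to those of Fam84b (0.0787), Nbea (0.0850) and Sgcd (0.0858), which like Celf2 passed the filter on low values only through WT_siCtrl. Their likeness to Celf2 is therefore set in part by that filter and by the pseudocount of 1.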

How the data were processed

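Polyadenylated RNA of 12 libraries was analysed. The authors deposited 1 table of FPKM values for 21881 genes; Cufflinks 1.0.3, TopHat 1.2.0 and build mm9 are named by the submitters' processing notes, while settings, annotation and strandedness are not given in the sources used here. FPKM divides by a library's mapped fragments, so large changes in abundant genes move other values, and near-identical or overlapping genes may share reads. Read counts are not part of these values; relative depth came from steps between low values.

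The 11801 genes, all 8 members among them, that reached an FPKM of 1 in 3 or more libraries were fitted with limma 3.58.1 under R 4.3.3 on the log2(FPKM + 1) scale, with 1 coefficient per group, 8 residual degrees of freedom, a variance trend and Benjamini-Hochberg adjustment over all genes, and called at an adjusted p under 0.05. The fit was tested on simulated data. The members and gene lists were chosen with earlier results of these data known. Named were the 8 members, Nr6a1, Dicer1, all relatives and partners, and the 3 most similar genes per member. Genes of the other splicing lists were taken from the 2 of smallest adjusted p per list and comparison. Not all of these are given in the text.

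Titles number the libraries 0, 1 and 2. Deviations from the group means correlated at 0.127 to 0.465 in the 12 same-number pairs of the 4 main comparisons and at 0.148 to 0.267 in KO_let-7g against WT_siCtrl, all over 0.1, so the number was taken as a pairing there from the data. In KO_siNr6a1 against WT_siCtrl the correlations were 0.370, 0.161 and 0.0915 for numbers 0, 1 and 2. The last is under 0.1, so the number was not taken as a pairing there. These values do not show that the libraries are unpaired. The main fit held no replicate block, so calls and shares are without the pairing unless the block is named. With the block, 6461 genes were called in KO_let-7g against KO_siNr6a1 in place of 4826. In KO_let-7g against WT_siCtrl 8090 were called in place of 6865. Alternatives were 3 scalings, 2 pseudocounts, 2 filters, no trend, a replicate block, a fit of 2 groups alone, and each library left out in turn (22 in all).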

Additional observations from a re-analysis of the deposited data

Results flagged for a closer look

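Of the 8 genes, 3 differed between the treatments in KO_let-7g against KO_siNr6a1 with limma, where 40.9% of all genes were called, so the count is near the background. Celf4 was higher in KO_let-7g by 0.59 on the log2(FPKM + 1) scale (adjusted p = 0.00556), with all 3 KO_let-7g libraries above the KO_siNr6a1 libraries. Mbnl1 was higher by 0.50 (limma adjusted p = 0.0238), again in 3 of 3 libraries, a call lost in 5 of 22 alternatives. Mbnl3 was lower, with a difference of -0.65 (limma adjusted p = 0.000967) and no overlap between the groups. Groups of 3 libraries were too small to look for single outlying libraries.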

How the results depend on the processing

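Over 22 alternatives, 32 of the 48 gene-by-comparison results of the 8 genes never changed sign or side of the threshold. Of the 31 called, 23 kept the call in every alternative that gave a value and 0 reversed. Those kept include Ptbp2, Celf4 and Mbnl1 in KO_siCtrl against WT_siCtrl and in both treatments against KO_siCtrl. The calls kept also include Celf2 in each comparison with WT_siCtrl. It passed the filter on low values only through those libraries and so had to differ from them. Celf2 gave a value in 19 alternatives, since it failed the filter without any 1 WT_siCtrl library. For KO_siNr6a1 against KO_siCtrl, the number of the 8 genes called was 4 with no filter on low values and 4 to 7 with 1 library left out, and the replicate block called 5248 genes in place of 3474. The block also called Mbnl1 in KO_siNr6a1 against WT_siCtrl (limma adjusted p = 0.00571); apart from the values given in the text, it changed no other call of the 8 genes. Differences that were not called changed sign as follows. Celf2 in KO_let-7g against KO_siCtrl was -0.0059 with median of ratios scaling, -0.11 with quantile scaling, and -0.029 to 0.029 with 1 library left out. Ptbp2 in KO_let-7g against KO_siNr6a1 was -0.090, -0.058 and -0.0033 with median of ratios, quantile and upper quartile scaling, and -0.046 to 0.13 with 1 library left out, lowest without KO_let-7g replicate 1. Celf1 in KO_let-7g against WT_siCtrl was 0.11 without KO_let-7g replicate 2 and 0.08 without WT_siCtrl replicate 0. Ptbp1 in KO_let-7g against WT_siCtrl was -0.014 with median of ratios scaling. The causes were not tested. Precision is low for Celf2 in the KO groups and for Celf3 and Celf6, which lay under 1 FPKM in every library, and the read counts behind them are unknown.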

Other observations

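Other splicing regulators were read from lists chosen, like the 8 genes, with earlier results known. Of 25 tissue-restricted or general regulators, 12 were tested. In KO_siCtrl against WT_siCtrl, 4 were higher and 3 lower (median log2 difference -0.01, against 0.04 over all genes), and 4 were called in all without WT_siCtrl replicate 1. Among all genes 29.1% were higher and 25.2% lower in that comparison. Khdrbs3, a STAR-family RNA-binding protein, averaged 0.0490 FPKM in KO_siCtrl and 15.6 in WT_siCtrl (-3.97, limma adjusted p = 1.23e-09). Khdrbs3 passed the filter on low values only through the WT_siCtrl libraries and so had to differ from them. Rbm47 averaged 5.55 FPKM in KO_siCtrl and 0.263 in WT_siCtrl (2.37, limma adjusted p = 5.46e-08). Rbm47 was at most 0.354 FPKM in WT_siCtrl and passed the same filter only through the KO libraries, so its difference was also set in part by the filter. Khdrbs3 and Rbm47 are both counted among the genes called in this comparison. The log2 difference of Rbm47 was 2.30 to 3.97 over the settings tried. In KO_let-7g against KO_siCtrl, 1 of the 12 was higher and 6 were lower (median -0.28), against 27.5% higher and 18.2% lower among all genes (median 0.08). Rbfox2 was lower in KO_let-7g (26.6 ± 2.71 against 41.5 ± 1.48 FPKM in KO_siCtrl; -0.62, limma adjusted p = 0.000133). Qk, the quaking protein of glia and muscle, averaged 82.4 ± 11.2 FPKM in KO_let-7g and 83.2 ± 3.303 in KO_siNr6a1, against 39.6 ± 6.08 in KO_siCtrl and 54.7 ± 10.1 in WT_siCtrl. It rose over KO_siCtrl by 1.04 in KO_let-7g (limma adjusted p = 0.000235) and by 1.06 in KO_siNr6a1 (0.000487). In KO_siNr6a1 against KO_siCtrl, 2 of the 12 were higher and 1 lower, against 13.2% and 16.3% of all genes. With the replicate block 5 of the 12 were called in all, and 5248 of the 11801 genes. In KO_let-7g against KO_siNr6a1 0 were higher and 4 lower, against 27.6% and 13.3% of all genes. With the block 7 of the 12 were called, and 6461 of the 11801 genes.

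The counts that follow from the main fit can be read against the shares of all genes called. These were 54.3% in KO_siCtrl against WT_siCtrl and 45.6% in KO_let-7g against KO_siCtrl. In KO_siNr6a1 against KO_siCtrl the share was 29.4%, and in KO_let-7g against KO_siNr6a1 it was 40.9%. With the replicate block, 7684, 6878, 5248 and 6461 of the 11801 genes were called, in the same order of comparisons. Counts with the block belong beside those larger numbers. Of the 12 SR and Tra2 proteins, which promote exon inclusion in most cells, the limma fit called 0 in KO_siCtrl against WT_siCtrl (0 at an unadjusted p under 0.05, and 1 called with the replicate block). In KO_let-7g against KO_siCtrl 1 was higher and 2 were lower, with Tra2a at -0.33 (limma adjusted p = 0.00286). In KO_siNr6a1 against KO_siCtrl 3 were lower, with Tra2a at -0.39 (limma adjusted p = 0.00219). In KO_let-7g against KO_siNr6a1 limma called 0, with 2 at an unadjusted p under 0.05 and 2 called with the block. Of the 19 hnRNP proteins, 3 were higher and 3 lower in KO_siCtrl against WT_siCtrl (10 called in all with the block), among them Syncrip at -0.65 (limma adjusted p = 0.000326). Hnrnpu, also called, was higher, at 371 ± 9.58 FPKM in KO_siCtrl against 282 ± 27.1 in WT_siCtrl. In KO_let-7g against KO_siCtrl 6 were lower and 0 higher (12 called with the block), with Hnrpdl at -0.56 (limma adjusted p = 0.00208). In KO_siNr6a1 against KO_siCtrl limma called 0 of the 19, with 4 at an unadjusted p under 0.05 and 5 called with the block, and in KO_let-7g against KO_siNr6a1 2 were lower (6 called with the block, and 1 without any 1 of the KO_let-7g or KO_siNr6a1 libraries).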
